A study of Mus musculus with 9 samples.

Results

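The enzymes that set, copy and oxidise methyl marks on cytosine were followed in cultured mouse prostate cancer cells: the DNA methyltransferases Dnmt1, Dnmt3a and Dnmt3b, the adaptor Uhrf1, and the Tet dioxygenases Tet1, Tet2 and Tet3. These 7 genes were taken by symbol, and all 7 had a row among the 12842 genes of the table. The study asked what silencing or inhibiting the histone methyltransferase NSD2 does in prostate cancer cells. RNA-seq libraries of NPK cells were made from polyadenylated RNA in 3 groups of 3. The authors deposited 1 log2-scale value per gene and library, already scaled between libraries. No read counts come with such values. Sequencing depth is therefore unknown, and precision was judged from the spread between replicates.

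The control libraries are labelled control cells. The shNsd2 libraries carry shRNA-mediated silencing of Nsd2, delivered by lentivirus according to the study's methods, and the MCTP libraries were treated with a compound whose label begins with MCTP. NPK cells were isolated by the authors from lung metastases of a mouse model of prostate cancer, and all 3 groups share this background. The labels of the MCTP replicates 1, 2 and 3 carry the numbers 39, 40 and 41, whereas the study names a single compound, number 39. The titles of the shNsd2 replicates all name Nsd2, but their source labels name Nsd2 for replicate 1, Nsd3 for replicate 2 and Nsd4 for replicate 3. For silencing, the study's methods give a lentiviral shRNA against luciferase as the control, and the labels of these control libraries do not say if it was used in them. Which shRNA against Nsd2 a library received, and the dose and time of the compound in these cells, were not found in the sources used here. Nothing states that the replicates were separate cultures, so the p-values measure only the spread between these libraries, which may be technical.

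Methylation of cytosine in CpG pairs is copied after replication by Dnmt1, which Uhrf1 brings to hemimethylated DNA. Dnmt3a and Dnmt3b place methyl groups on unmethylated DNA, and Dnmt3a can bind histone H3 dimethylated at the lysine that NSD2 methylates. The Tet enzymes oxidise methylcytosine, which base excision repair or replication can then remove.

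Nsd2, listed under its older symbol Whsc1, was read first as a check of the labels. Its log2 values were 12.48, 12.43 and 12.42 in the control libraries, 11.56, 11.61 and 11.68 in the shNsd2 libraries, and 12.15, 12.21 and 12.07 in the MCTP libraries. All 3 shNsd2 libraries lay below all others, whichever gene their source label names, and the MCTP libraries lay between them and the controls. On the linear scale, Nsd2 stood at 56.4% ± 2.47 (SD, n = 3) of the control mean in shNsd2 cells and at 81.3% ± 3.91 (SD, n = 3) in MCTP cells. The log2 fold changes were -0.83 (limma, adjusted p = 2.26e-06) and -0.30 (adjusted p = 0.00562), each lower in 3 of 3 libraries. Nsd3, named in the source label of shNsd2 replicate 2, was at 11.38 in that library, against 11.38 to 11.54 in the controls, and its log2 fold change in shNsd2 cells was -0.024 (adjusted p = 0.744). Nsd1 changed by -0.019 with shNsd2 (adjusted p = 0.824) and fell with MCTP (log2 fold change -0.49, adjusted p = 0.00968). Setd2, which trimethylates the same lysine, changed by 0.0040 with shNsd2 (adjusted p = 0.973) and by -0.43 with MCTP (adjusted p = 0.0616).

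Transcripts of simple epithelial keratins and of vimentin were both abundant in the libraries. Krt8, Krt18, Krt19 and Vim had control means of 16.28, 15.39, 16.20 and 17.22, at percentiles of 99.6 or above among all genes, and Hoxb13 was at 10.28. The epithelial adhesion gene Epcam was at 3.55 in the controls, below the floor for low values, and the prostate gene Pbsn and the basal keratin Krt5 had no row in the table used here. The leukocyte genes Ptprc, Cd3e and Cd79a, the endothelial genes Pecam1 and Kdr, the fibroblast gene Col1a2 and the lung genes Sftpc, Scgb1a1 and Nkx2-1 also had no row, and endothelial Cdh5 was below the floor. Basal Krt14, the most abundant of 2 basal markers with a row, rose by 0.78 with shNsd2 and by 1.19 with MCTP (limma, adjusted p = 2.22e-05 and 2.74e-04), and the macrophage-associated Cd68, the single leukocyte marker of 4 with a row, rose by 0.23 and 0.73 (adjusted p = 0.00227 and 6.88e-04). Cd68 was at 6.50, 6.51 and 6.60 in the controls, at 6.78, 6.78 and 6.72 with shNsd2 and at 7.20, 7.15 and 7.44 with MCTP. Fibroblast Col1a1, the more abundant of 2 fibroblast markers with a row, fell in both (log2 fold changes -0.30 and -0.33). The summed level of both fibroblast markers was 8.32, 8.20 and 8.31 in the controls, 7.99, 8.04 and 7.99 with shNsd2 and 8.04, 8.01 and 7.86 with MCTP. Pdgfra, close to the floor, was 0.13 higher with shNsd2, where Trp63 was 0.094 lower (adjusted p = 0.0464, lost in 12 of 14 alternative analyses). With shNsd2, Krt19 (-0.34), Fn1 (-0.42), Zeb1 (-0.28), Cdh1 (-0.20) and Vim (-0.16) fell. With MCTP, Cdh1 (-0.34) and Zeb1 (-0.23) fell, whereas Krt19 (0.37) and Vim (0.32) rose. The MCTP calls of Krt19 (0.27 to 0.48), Vim (0.26 to 0.39) and Zeb1 (-0.30 to -0.18) were lost without any single library other than MCTP replicate 2, and the shNsd2 call of Vim without any but control replicate 1 (-0.19 to -0.12). After correction for GC content, Zeb1 was at -0.15 with MCTP and Trp63 at -0.029 with shNsd2. Whether these markers bear on the methylation genes was not tested. In bulk RNA, fewer cells of a kind and less RNA per cell cannot be told apart.

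The libraries of a group were not all alike. The deviation of each library from the mean of all 9 followed the GC content of the transcripts, with Spearman correlations across 11913 genes of -0.62, -0.34 and -0.19 in control replicates 1 to 3, of 0.11, 0.13 and -0.30 in shNsd2, and of 0.47, -0.33 and 0.58 in MCTP. Genes are not independent replicates, and these values describe the libraries only. Within shNsd2, replicate 3 was opposite in sign to the other libraries. Leaving it out gave 5655 genes past the threshold between shNsd2 and control, against 5836 with it. MCTP replicate 2, the library labelled 40, also had a trend opposite in sign to that of the other 2 MCTP libraries. Without it, 7384 of 12216 genes passed the threshold between MCTP and control, against 4305 with it, and leaving out any other single library gave 2046 to 2842. Member values with MCTP are therefore given with and without this library, and with each library corrected for GC content.

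Per kilobase of transcript, the maintenance pair stood highest. In the control libraries, the log2 level per kilobase was 11.33 ± 0.033 (SD, n = 3) for Uhrf1 and 10.90 ± 0.021 for Dnmt1. Tet3 followed at 8.58 ± 0.11, then Dnmt3a at 6.90 ± 0.072, Tet2 at 6.38 ± 0.21 and Dnmt3b at 3.86 ± 0.060. Each neighbour in this order differed by more than the sum of both SDs. The spacing depends on the transcript used: with its longest transcript of 10904 nt in place of 5944 nt, Tet3 stood at 7.71, still between Dnmt1 and Dnmt3a. Tet1 was at the floor, with values of 3.70 to 3.88 in all 9 libraries against a floor of 3.78, so its level per kilobase has no meaning beyond being low. The order from Uhrf1 to Dnmt3b was the same in the shNsd2 and MCTP libraries.

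**Figure D1:**
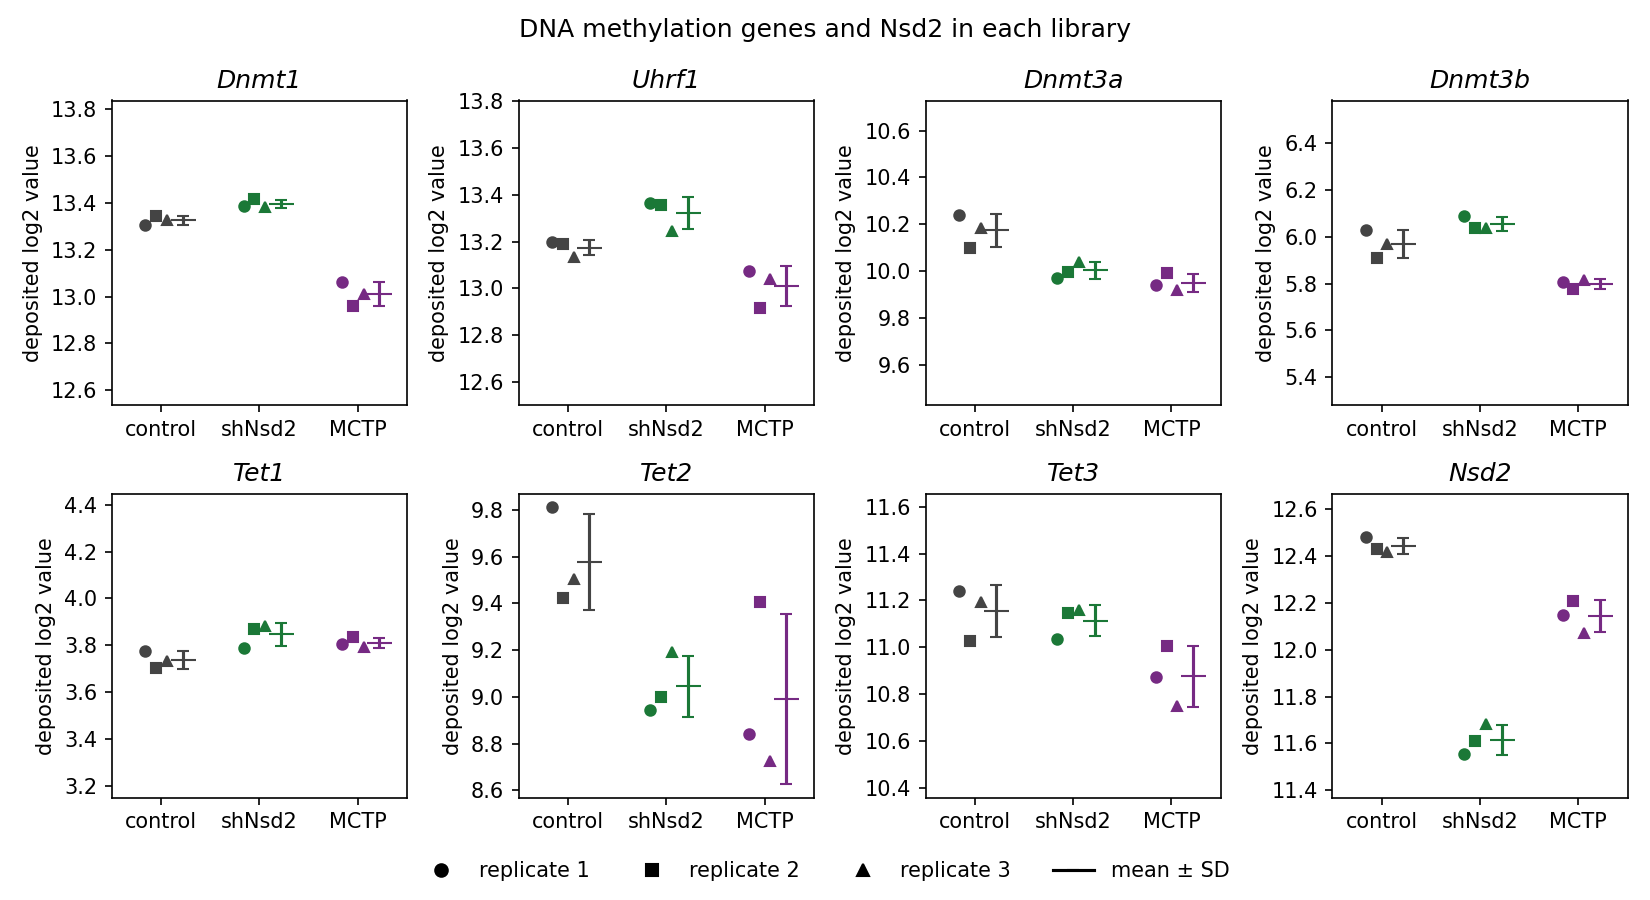
Deposited log2 value of each methylation gene and of Nsd2 (vertical axis, every panel spanning the same range) in control, shNsd2 and MCTP libraries, with points for replicates and a bar for the mean ± SD. Dnmt1 in MCTP cells lies at 12.96 to 13.06, below all control libraries at 13.30 to 13.35, and MCTP replicate 2 stands apart for Tet2 at 9.40.

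With shNsd2, 5836 of 12205 genes tested passed the threshold (limma, adjusted p under 0.05), or 47.8%, with 23.1% higher and 24.8% lower, and 57.2% had groups that did not overlap. Among the members, 4 of 7 passed: Uhrf1 and Tet1 were higher, Dnmt3a and Tet2 lower. Groups were apart for 6 of 7, the exception being Tet3. Tet1 passed the low-value filter through the treated libraries, with control replicate 1 alone among the controls above the floor, so a difference was part of its selection. Without it, 3 of 6 members passed, a share near that of all genes, and groups were apart for 5 of 6. Of these 6, Tet2 alone passed without shNsd2 replicate 1 or without replicate 2, where 4462 and 4340 of all genes passed. With MCTP, 35.2% of 12216 genes passed, 18.0% higher and 17.2% lower, and 50.6% did not overlap. Here 5 of 7 members passed, Dnmt1, Dnmt3a, Dnmt3b, Tet2 and Tet3, all of them lower, and groups were apart for 7 of 7. Tet1 entered this comparison in the same way, and without it 5 of 6 passed and groups were apart for 6 of 6. Leaving out control replicate 1, control replicate 3 or MCTP replicate 1 left Dnmt1 as the single member that passed. Between shNsd2 and MCTP, 43.2% of 12217 genes passed, 20.6% higher and 22.6% lower in shNsd2, and 55.0% did not overlap. Dnmt1, Uhrf1, Dnmt3b and Tet3, or 4 of 7, were higher in shNsd2 than in MCTP cells, and groups were apart for these 4. Both comparisons with control share the control libraries and are not independent. For any single gene the exact two-sided permutation test of 3 against 3 libraries cannot give a p below 0.1.

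**Figure D2:**
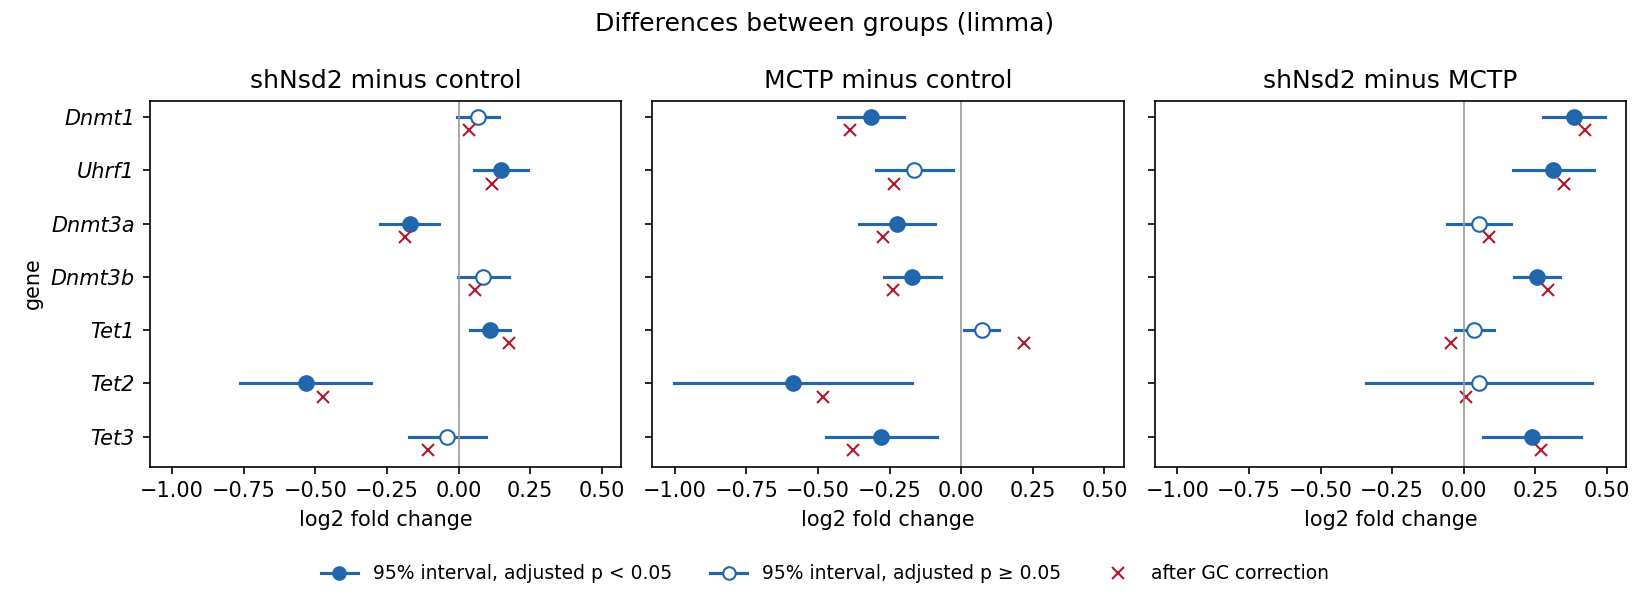
Log2 fold change of each methylation gene (horizontal axis) with its 95% interval from limma in 3 comparisons, filled where the adjusted p passed the threshold, and the value after correction for GC content as a cross. Tet2 lies at -0.53 and -0.59 in the comparisons with control and at 0.054 between the treated groups, whereas Dnmt1 and Uhrf1 lie at 0.38 and 0.31 between them.

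Dnmt1, the maintenance methyltransferase, had log2 values of 13.30, 13.35 and 13.33 in the control libraries. It was at 13.39, 13.42 and 13.38 in the shNsd2 libraries and at 13.06, 12.96 and 13.01 in the MCTP libraries. The 3 groups did not overlap, with MCTP lowest and shNsd2 just above the controls. The fall with MCTP was 0.32 on the log2 scale (log2 fold change -0.32, 95% interval -0.43 to -0.20, limma adjusted p = 0.00339), which left 80.4% ± 2.86 (SD, n = 3) of the control mean. It was -0.29 without MCTP replicate 2 and -0.39 after correction for GC content, and it passed the threshold in all 14 alternative analyses. With shNsd2 the difference was 0.069 (95% interval -0.0040 to 0.14, adjusted p = 0.108), higher in 3 of 3 libraries but not past the threshold, and 0.036 after correction for GC content. Between shNsd2 and MCTP the difference was 0.38 (adjusted p = 7.69e-04).

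Uhrf1, which binds hemimethylated DNA through its SRA domain and recruits Dnmt1, had control values of 13.20, 13.19 and 13.14. The shNsd2 libraries were at 13.37, 13.36 and 13.25, and the MCTP libraries at 13.07, 12.92 and 13.04. The groups did not overlap, in the same order as for Dnmt1. Uhrf1 rose with shNsd2 by 0.15 (95% interval 0.053 to 0.24, limma adjusted p = 0.0178), to 110.9% ± 5.11 (SD, n = 3) of the control mean. The call was lost without control replicate 3 (0.13), shNsd2 replicate 1 (0.13) or shNsd2 replicate 2 (0.13). With MCTP the log2 fold change was -0.16 (95% interval -0.30 to -0.030, adjusted p = 0.0592), and -0.12 without MCTP replicate 2. After correction for GC content it was -0.24 and past the threshold, with adjusted p-values of 0.00200 to 0.173 over its 14 alternatives. Between shNsd2 and MCTP, Uhrf1 differed by 0.31 (adjusted p = 0.00570), a call kept in all 14 alternatives, as was that of Dnmt1.

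Dnmt3a, the de novo enzyme with the higher level of the pair, had control values of 10.24, 10.10 and 10.19. It was at 9.97, 9.997 and 10.04 in shNsd2 libraries and at 9.94, 9.99 and 9.92 in MCTP libraries. Every library of either treated group lay below every control library, and the treated groups overlapped. The log2 fold change with shNsd2 was -0.17 (95% interval -0.27 to -0.068, limma adjusted p = 0.0135), a level of 88.8% ± 2.17 (SD, n = 3) of the control mean. This call was lost without shNsd2 replicate 1 (-0.16) or replicate 2 (-0.17). With MCTP it was -0.22 (95% interval -0.36 to -0.092, adjusted p = 0.0206), or 85.6% ± 2.29 of the control mean. It was -0.25 without MCTP replicate 2 and -0.27 after correction for GC content. The MCTP call was lost without control replicate 1 (-0.19) or 3 (-0.22) and without MCTP replicate 1 (-0.22) or 3 (-0.21). The treated groups differed by 0.054 (95% interval -0.058 to 0.17, adjusted p = 0.394). Dnmt3a shares 133 exonic bases with the antisense transcript Dnmt3aos, and whether the counting used strand is not stated, so their reads may not be told apart.

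Dnmt3b, the second de novo enzyme, was weakly expressed, at 6.03, 5.91 and 5.97 in the controls. The shNsd2 libraries held 6.09, 6.04 and 6.04, and the MCTP libraries 5.81, 5.77 and 5.81. As for the maintenance pair, the groups did not overlap and MCTP was lowest. The log2 fold change with MCTP was -0.17 (95% interval -0.27 to -0.072, limma adjusted p = 0.0195), -0.16 without MCTP replicate 2 and -0.24 after correction for GC content. Its call was lost without control replicate 1 (-0.14) or 3 (-0.17) and without MCTP replicate 1 (-0.17). With shNsd2 the value was 0.086 (95% interval -0.0039 to 0.18, adjusted p = 0.105), which passed the threshold only without control replicate 1 (0.12), and 0.058 after correction for GC content. Between shNsd2 and MCTP the difference was 0.26 (adjusted p = 0.00118). Among 306 other genes within 0.25 of its control mean, the median difference with MCTP was 0.026, with quartiles of -0.091 and 0.14. Dnmt3l, the catalytically inactive partner of the de novo enzymes, had no row in the table used here.

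Tet2, a dioxygenase that converts methylcytosine to hydroxymethylcytosine, showed the largest differences from control among the members. Its control values were 9.81, 9.42 and 9.50, and its shNsd2 values 8.94, 8.998 and 9.19. The MCTP libraries held 8.84, 9.40 and 8.72. All shNsd2 libraries were below all controls, while MCTP replicate 2 lay only just below the lowest control. With shNsd2, Tet2 fell by 0.53 on the log2 scale (95% interval -0.76 to -0.31, limma adjusted p = 0.00250), to 69.2% ± 6.39 (SD, n = 3) of the control mean. The fall was -0.42 without control replicate 1, the library with the highest value, and -0.47 after correction for GC content, and it passed the threshold in all 14 alternatives.

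With MCTP, the log2 fold change of Tet2 was -0.59 (95% interval -1.004 to -0.17, limma adjusted p = 0.0382), or 68.0% ± 18.1 (SD, n = 3) of the control mean. The large SD came from MCTP replicate 2, at 88.7% of the control mean against 60.0% and 55.3% in the other 2 libraries. Without it the log2 fold change was -0.80, and the call was lost without control replicate 1 (-0.47), 2 (-0.67) or 3 (-0.63) and without MCTP replicate 1 (-0.51) or 3 (-0.46). After correction for GC content it was -0.48. The shNsd2 and MCTP groups differed by 0.054 (95% interval -0.34 to 0.45, adjusted p = 0.816), and by 0.26 without MCTP replicate 2, a difference then past the threshold, with adjusted p-values of 0.0131 to 0.958 over its alternatives. Tet2 shares 43 exonic bases with the antisense gene Gm42567.

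Tet3, the most abundant Tet transcript per kilobase, had control values of 11.24, 11.03 and 11.20. It was at 11.04, 11.15 and 11.16 with shNsd2, within the range of the controls, and at 10.87, 11.004 and 10.75 with MCTP. MCTP replicate 2 lay just below the lowest control, and the groups did not overlap. The log2 fold change with MCTP was -0.28 (95% interval -0.47 to -0.086, limma adjusted p = 0.0354), or 82.7% ± 7.35 (SD, n = 3) of the control mean. It was -0.34 without MCTP replicate 2 and -0.38 after correction for GC content. The call was lost without control replicate 1 (-0.24) or 3 (-0.26), without MCTP replicate 1 (-0.28) or 3 (-0.21), and after quantile normalization (-0.24). With shNsd2 the value was -0.040 (95% interval -0.17 to 0.095, adjusted p = 0.608), and 0.0033 without control replicate 1 and -0.11 after correction for GC content. Between shNsd2 and MCTP, Tet3 differed by 0.24 (adjusted p = 0.0326), a call lost without MCTP replicate 1 (0.24) or 3 (0.17) and without shNsd2 replicate 1 (0.28), 2 (0.22) or 3 (0.22).

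Tet1, whose activity is best known in embryonic stem cells and early germ cells, had values of 3.78, 3.70 and 3.73 in the controls. The shNsd2 libraries were at 3.79, 3.87 and 3.88, and the MCTP libraries at 3.80, 3.83 and 3.79. The treated libraries all lay above the controls by a small margin, and the group means were at percentiles of 4.84, 5.47 and 5.13 among all genes in control, shNsd2 and MCTP cells. The log2 fold changes were 0.11 with shNsd2 (limma adjusted p = 0.0164) and 0.072 with MCTP (adjusted p = 0.0652), and no weight can be put on them at this level. The MCTP value was 0.060 without MCTP replicate 2 and 0.22, past the threshold, after correction for GC content. After the same correction the shNsd2 value was 0.17. The shNsd2 call was lost without control replicate 2 (0.092) and without shNsd2 replicate 2 (0.098) or 3 (0.092). Among 378 other genes within 0.25 of its control mean, the median difference with shNsd2 was -7.76e-04, with quartiles of -0.039 and 0.034.

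Across the 9 libraries the members fell into patterns that are described here without a test, since 3 groups underlie all 9 points. Dnmt1, Uhrf1 and Dnmt3b ran together, with Pearson correlations of 0.907 (Dnmt1 and Uhrf1), 0.922 (Dnmt1 and Dnmt3b) and 0.915 (Uhrf1 and Dnmt3b). Dnmt3a ran with Tet2 (0.916) and less closely with Dnmt1 (0.462) and Uhrf1 (0.138). The correlation of Tet2 with Uhrf1 was -0.083. Tet3 ran with members of both sets, at 0.727 with Dnmt1, 0.723 with Dnmt3b, 0.788 with Dnmt3a and 0.737 with Tet2, and less closely with Uhrf1 (0.485). Among 12187 genes searched, the 3 most like Dnmt1 were Usp43 (0.996), Epn2 (0.992) and Prps1 (0.991), and those most like Uhrf1 were Racgap1 (0.993), Pdap1 (0.986) and Cdc45 (0.983). Dnmt3b was closest to Rfc3 (0.974), Timeless (0.972) and Phf21b (0.971), of which the first encodes a subunit of the replication clamp loader and the next a replication fork protein. Dnmt3a was closest to Gabbr1 (0.981), Trpv3 (0.976) and Rell1 (0.972), Tet2 to Rest (0.991), Klf7 (0.991) and Ss18 (0.990), and Tet3 to Usp48 (0.982), Dyrk1a (0.970) and Zfp57 (0.967). For Tet1, at the floor, the closest were 9130206I24Rik (0.959), Gm15800 (0.948) and Ttll3 (0.940).

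The 7 genes lie on 7 chromosomes. In GRCm38, Dnmt1 spans chr9:20907209-20959888 on the minus strand and Uhrf1 chr17:56303321-56323486 on the plus strand. Dnmt3a lies at chr12:3806007-3914443 and Dnmt3b at chr2:153649450-153687730, both on the plus strand. Tet1 lies at chr10:62804570-62908996, Tet2 at chr3:133463679-133545139 and Tet3 at chr6:83362373-83459084, all on the minus strand. The transcripts of Tet1 and Tet2 have GC contents of 43.7% and 45.4%, lower than the 51.9% to 60.1% of the other 5.

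Because Dnmt1 and Uhrf1 moved together, the promoter windows of the members were read for a motif of replication genes. Dnmt3b ran at least as closely with Dnmt1 (0.922) and Uhrf1 (0.915) as those genes with each other (0.907). RefSeq windows (GRCm38.p6) run from 250 bases before to 50 bases after an annotated start, and all 7 members matched, with 12 windows in all. The E2F-type motifs TTTCCCGC, TTTGGCGC, TTTCGCGC and TTTGCCGC were searched on both strands, and 2.26% of 32851 windows held at least 1 match. One of 3 Dnmt1 windows and 1 of 2 Uhrf1 windows held a match, at chr9:20952574-20952873 (minus strand) and chr17:56304063-56304362 (plus strand). Their annotated starts lay 356 and 992 bases from the starts of the transcripts used here for length. The windows nearest those transcript starts, at 0 and 16 bases, held no match. No window of the other 5 genes, Dnmt3b included, held one. The single windows of Tet1 and Tet3 lay 11794 and 14714 bases from their transcript starts, which were therefore not read. Both windows with a match held 33 CpG pairs, more than 91.4% of windows hold, and the single Tet2 window held 57. The median over all windows was 7. Each motif itself contains a CpG pair, and the share of windows with a match among those of like CpG content was not examined. A match describes letters in a window and not a bound site. The matches are in capitals.
Dnmt1: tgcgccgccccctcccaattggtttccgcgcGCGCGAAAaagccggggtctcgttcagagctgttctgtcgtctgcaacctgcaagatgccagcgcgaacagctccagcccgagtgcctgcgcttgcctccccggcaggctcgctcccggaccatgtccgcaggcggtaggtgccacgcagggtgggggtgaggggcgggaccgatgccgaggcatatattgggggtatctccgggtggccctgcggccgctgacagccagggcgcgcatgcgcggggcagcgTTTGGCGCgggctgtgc
Uhrf1: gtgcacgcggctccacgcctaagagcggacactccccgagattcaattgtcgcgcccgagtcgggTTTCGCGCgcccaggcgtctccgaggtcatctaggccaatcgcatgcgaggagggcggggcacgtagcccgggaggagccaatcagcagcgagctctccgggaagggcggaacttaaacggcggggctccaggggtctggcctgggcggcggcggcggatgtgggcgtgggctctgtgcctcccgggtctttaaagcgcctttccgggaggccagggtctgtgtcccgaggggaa

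Genes whose products work with these enzymes were counted from fixed lists, and the counts are set beside the share of all genes that passed. Where a list's largest changes are given, they are those of genes past the threshold. Of 15 partners of maintenance and de novo methylation that were tested, 4 were higher and 2 lower with shNsd2, with a median log2 fold change of 0.041 against 0.0020 over all genes, and 47.8% of all genes passed. Without shNsd2 replicate 1, 3 of the 15 did. The higher ones included Hells (0.36, adjusted p = 0.0267), a chromatin remodeller, its partner Cdca7 (0.19, adjusted p = 0.00417), and Trim28 (0.31, adjusted p = 8.83e-04), a corepressor. With MCTP none of the 15 was higher by limma (1 at an unadjusted p under 0.05) and 4 were lower, with a median of -0.14 against -0.0062 over all genes, of which 35.2% passed. Among the genes past the threshold, the falls were largest for Pcna (-0.34, adjusted p = 0.00543), the replication clamp, and Cdca7 (-0.34, adjusted p = 0.00375), followed by Usp7 (-0.25), which stabilises Uhrf1 and Dnmt1. Hells, Pclaf and Hdac2 had lower values than Usp7 (-0.41, -0.33 and -0.30) without passing (adjusted p = 0.113, 0.0830 and 0.0538), and all 3 passed without MCTP replicate 2 (-0.61, -0.45 and -0.41). After correction for GC content they were nearer 0, at -0.17, -0.12 and -0.17. Cdca7 had its groups in the order seen for Dnmt1 and Uhrf1, with MCTP lowest and shNsd2 highest. The Hells call was lost in 4 of 6 analyses without 1 library (0.24 to 0.49), and that of Usp7 in 5 of 6 (-0.30 to -0.20). Without MCTP replicate 2, 9 partners were lower and 1 higher with MCTP, and without any of the other 5 libraries 2 or 3 were lower.

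Of 17 partners of the Tet enzymes and of base excision repair, 4 were higher and 5 lower with shNsd2 (median 0.030), and 2 were higher and 4 lower with MCTP (median -0.078), so 9 and 6 of 17 passed, beside 47.8% and 35.2% of all genes. The balance with shNsd2 depended on the setting, with 7 higher and 2 lower after quantile normalization, and 4 higher and 2 lower with all 9 libraries in 1 fit, without control replicate 2 or without shNsd2 replicate 2. Without control replicate 3 or shNsd2 replicate 1, 3 were lower. Idh1, which makes the 2-oxoglutarate that Tet enzymes consume, fell with shNsd2 by 0.57 on the log2 scale (limma adjusted p = 2.47e-05). Cxxc5, a CXXC-domain protein, also fell (-0.34, adjusted p = 8.35e-05), and the repair scaffold Xrcc1 rose by 0.28 (adjusted p = 0.00156). With MCTP the largest changes were rises of Gadd45g (0.55, adjusted p = 0.001002) and Gadd45b (0.46, adjusted p = 0.00141), genes induced by stress, and a fall of Ogt (-0.42, adjusted p = 0.0389), the O-GlcNAc transferase that binds Tet2 and Tet3. Gadd45a, of the same family as the genes that rose, fell (-0.37, adjusted p = 0.00731). Ogt was at -0.25 after correction for GC content. Its call was lost without any single library other than MCTP replicate 2 (range -0.55 to -0.31). The list's calls with MCTP numbered 8 without that library and 4 or 5 without another. Neil2 and Wt1 had no row in the table used here.

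All 11 listed readers of methylated CpG were tested. With shNsd2, 2 were higher and 3 lower (median 0.021), led by the zinc finger genes Zbtb38 (-0.35, limma adjusted p = 9.88e-04) and Zbtb4 (-0.28, adjusted p = 7.60e-04), with Mbd1 higher (0.14, adjusted p = 0.00885). Without shNsd2 replicate 1, 3 of the 11 passed. With MCTP none was higher by limma (2 at an unadjusted p under 0.05) and 4 were lower (median -0.15), among them Mbd6 (-0.28, adjusted p = 0.0155) and Setdb1 (-0.19, adjusted p = 0.0322). Each of these 2 MCTP calls was lost in at least 3 of 6 analyses without 1 library, with values between -0.34 and -0.17. Without MCTP replicate 2, 7 readers were lower and 2 higher, and without any other single library at most 1 was lower. Of the 11, 5 passed with shNsd2 and 4 with MCTP, where 47.8% and 35.2% of all genes did.

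The supply and removal of the methyl donor was represented by 9 tested genes, and Mat1a, Bhmt and Gnmt had no row in the table used here. With shNsd2, 2 were higher and 2 lower (median 0.041), and 1 was higher and 1 lower without shNsd2 replicate 1 or replicate 2. After correction for GC content 4 were higher and 2 lower, and the median was then -0.014, as it was without control replicate 2. Without control replicate 2 or 3, 1 was higher and 2 were lower, and without shNsd2 replicate 3, 1 was higher and 3 were lower. Ahcy, which clears the inhibitory product S-adenosylhomocysteine, rose by 0.40 (limma adjusted p = 2.45e-04), and its relatives Ahcyl2 (-0.26, adjusted p = 0.00118) and Ahcyl1 (-0.12, adjusted p = 0.0136) fell. The Ahcyl1 call was lost without shNsd2 replicate 1 or 2 (range -0.14 to -0.11), and its value was -0.079 after correction for GC content. With MCTP 4 of 9 were lower and none was higher by limma, 0 also at an unadjusted p under 0.05 (median -0.10), among them Ahcyl1 (-0.28, adjusted p = 0.00611) and the methionine synthase gene Mtr (-0.27, adjusted p = 0.00618). In each comparison 4 of 9 passed, beside the same 47.8% and 35.2% of all genes.

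Maintenance methylation follows replication, so cell cycle genes were set beside Dnmt1 and Uhrf1. Of 20 S phase genes, 13 were higher and 1 was lower with shNsd2, with a median of 0.19 against 0.0020 over all genes, of which 23.1% were higher and 24.8% lower. Ccne1 (0.41), Fen1 (0.39) and Mcm5 (0.34) led, with limma adjusted p-values of 7.05e-05, 3.55e-04 and 4.34e-04. With MCTP, 1 was higher and 7 were lower (median -0.13), beside 18.0% higher and 17.2% lower of all genes, led by Ung (-0.46, adjusted p = 8.63e-04), a rise of Ccne1 (0.36, adjusted p = 0.00361) and a fall of Mcm6 (-0.34, adjusted p = 0.00471). Of 16 mitosis genes, 4 were higher with shNsd2 (median 0.028), beside 23.1% of all genes, among them Aurka (0.31, adjusted p = 2.75e-04), Plk1 (0.22, adjusted p = 0.00419) and Cdc20 (0.16, adjusted p = 0.0142). With MCTP, 1 was higher and 7 were lower (median -0.21, beside 17.2% of all genes lower), among them Mki67 (-0.54, adjusted p = 0.0285) and Top2a (-0.38, adjusted p = 0.0330), whereas Cdc20 rose by 0.24 (adjusted p = 0.0341). The MCTP calls of Mki67, Top2a and Cdc20 were each lost in at least 4 of 6 analyses without 1 library, with ranges of -0.71 to -0.45, -0.49 to -0.29 and 0.18 to 0.30, and the shNsd2 call of Cdc20 in 3 of 6 (0.14 to 0.20). After correction for GC content, Top2a was at -0.22 and Cdc20 at 0.14 with MCTP. With shNsd2, the mitosis genes higher numbered 7 after correction for GC content (median 0.077), 6 without control replicate 1 (median 0.13), 2 without control replicate 3 (1 then lower, median -0.016), and 2 without shNsd2 replicate 1 or 2 (medians 0.033 and 0.073). Without MCTP replicate 2, 15 mitosis genes and 11 S phase genes passed with MCTP, against at most 5 mitosis genes and 7 S phase genes without any other library. Without control replicate 2 every mitosis call with MCTP was lost, and without MCTP replicate 1 that of Aurkb alone was left. The part of the cell cycle in the Dnmt1 and Uhrf1 values was not tested.

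**Figure D3:**
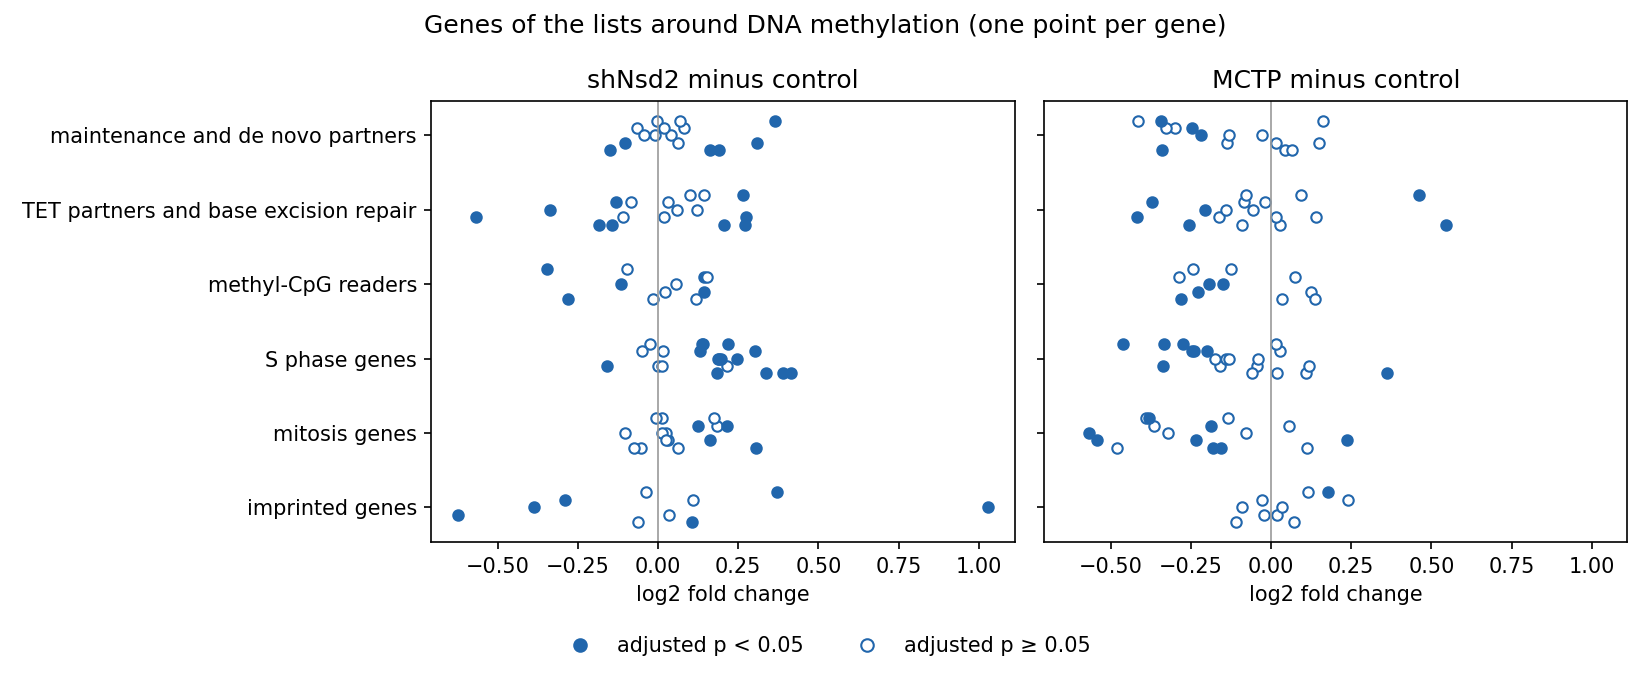
Log2 fold change (horizontal axis) of each tested gene of 6 fixed lists, as 1 point per gene, in shNsd2 and MCTP cells against control, filled where the limma adjusted p passed the threshold. S phase genes lie mostly right of 0 with shNsd2 (median 0.19) and left of it with MCTP (median -0.13), and Phlda2 stands apart at 1.03 among the imprinted genes.

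Genes known to be held silent or monoallelic by DNA methylation were read last. None of 11 germline genes that promoter methylation silences in somatic cells had a row in the table used here, among them Dazl, Ddx4, Mael and Sycp3. Of 26 imprinted genes, 12 had a row and 10 were tested, H19 and Cdkn1c being below the floor. With shNsd2, 3 were higher and 3 lower (median -0.0018), beside 23.1% and 24.8% of all genes. Phlda2, a maternally expressed growth regulator, rose by 1.03 (limma adjusted p = 9.54e-07), and the paternally expressed Mest and Peg12 rose by 0.37 and 0.11. The Peg12 call was lost in 4 of 6 analyses without 1 library, and its value was 0.052 after correction for GC content. Peg3, which is paternally expressed, fell (-0.62, adjusted p = 3.94e-04), as did the maternally expressed Igf2r (-0.39, adjusted p = 5.29e-05) and the paternally expressed Snrpn (-0.29, adjusted p = 3.36e-04). With MCTP, Mest alone of the 10 passed (0.18, limma adjusted p = 0.0227), where 35.2% of all genes passed and 18.0% were higher. Without control replicate 2 or 3 or MCTP replicate 1, Mest did not pass (range 0.14 to 0.21). The table holds no allele-specific values and no DNA methylation, so neither was examined.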

How the data were processed

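RNA-seq values of 9 libraries (3 control, 3 shNsd2, 3 MCTP) were used as deposited by the authors, on a log2 scale, scaled between libraries and with the variance of low values reduced; the transform is not named with the table. The submitters' processing notes name bcl2fastq 1.8.4, TopHat, Cufflinks, DESeq, DESeq2 and the build mm9, without their roles. For the tumour profiles of the study, its methods give scaling and variance stabilization with the last of these tools. The table has 3 further columns of values that match no sample here, and they were not used. Genes were tested if at least 3 of 6 libraries exceeded 3.78, the median of the lowest 10% of values, using moderated statistics from limma 3.58.1 (R 4.3.3, eBayes with a trend) and Benjamini-Hochberg adjustment over all genes tested at a threshold of 0.05. This procedure was tested on simulated data. Levels per kilobase, GC content and coordinates come from GENCODE M21 (GRCm38), in which 97.4% of the identifiers were found. GC correction was a lowess fit (span 0.3) for each library, which also removes real changes that follow GC content. After it, the correlations of the libraries with GC content were -0.050 to 0.044, and a correction of another form may give other values. The 14 alternatives for each comparison were no low-value filter, all 9 libraries in 1 fit, the replicate block, quantile normalization, median centring, eBayes without trend, GC correction, GC correction with the block, and each of 6 libraries left out.

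Named genes were the members, the NSD genes and Setd2, up to 3 genes per list and comparison with control (largest log2 fold change past the threshold, groups not overlapping), the 3 nearest patterns per member, and list genes absent or below the floor. Some genes that this rule covers are left out of the text. Other genes are named to complete short counts and were chosen after their values were seen. The members and the lists were chosen with earlier results of these data known, and lists were described by counts and medians, not tested. Plots used Python 3.11.15 and matplotlib 3.10.9.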

Additional observations from a re-analysis of the deposited data

How the results depend on the processing

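Depth is unknown, since the values carry no counts, and values near the floor, such as those of Tet1, are compressed. Each group has 3 libraries, so leaving out 1 also lowers the power of the test. Without 1 library, genes past the threshold numbered 2046 to 7384 for MCTP (4305 with all 6) and 3391 to 7781 between shNsd2 and MCTP (5276 with all 6). For shNsd2 against control, the member values then ranged from 0.13 to 0.19 (Uhrf1), -0.21 to -0.14 (Dnmt3a), 0.056 to 0.12 (Dnmt3b), 0.092 to 0.14 (Tet1) and -0.10 to 0.0033 (Tet3, which changed sign without control replicate 1). For MCTP they ranged from -0.26 to -0.19 (Dnmt3a), -0.20 to -0.14 (Dnmt3b), -0.80 to -0.46 (Tet2) and -0.34 to -0.21 (Tet3), and between shNsd2 and MCTP from -0.079 to 0.26 (Tet2) and 0.17 to 0.30 (Tet3). Tet2 changed sign there without MCTP replicate 1 (-0.020), MCTP replicate 3 (-0.079) or shNsd2 replicate 3 (-0.020).

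With all 9 libraries in 1 fit, Uhrf1 lost its call with shNsd2 (0.15) and gained one with MCTP (-0.16). Quantile normalization gave calls for Dnmt1 with shNsd2 (0.094) and Uhrf1 with MCTP (-0.13) and ended that of Tet3 with MCTP (-0.24). Median centring gave a call for Tet1 with MCTP (0.11). Correction for GC content, with or without the block, gave calls with MCTP for Uhrf1 (-0.24) and Tet1 (0.22), and turned the sign of Tet1 between shNsd2 and MCTP (-0.046). The causes were not tested.

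Deviations of same-numbered libraries from their group means correlated at -0.81 to 0.61 over the 3 comparisons. The pair of MCTP and control replicate 3, at 0.61, was the only one above the pairs of that MCTP library with other controls. With 3 libraries per group, and deviations that follow GC content, these values cannot decide whether replicate numbers mark pairs. Among pairs with different numbers, shNsd2 replicate 3 and MCTP replicate 2 correlated at 0.84. Control replicate 1 correlated at 0.80 with MCTP replicate 2 and at 0.64 with shNsd2 replicate 3. Blocking on the replicate number left 4515, 3399 and 3794 genes past the threshold for shNsd2, MCTP and shNsd2 against MCTP, and the calls of Dnmt3a (-0.22) and Tet3 (-0.28) with MCTP and of Tet3 between shNsd2 and MCTP (0.24) were not reached. No other member call changed with the block.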
